A study of Caenorhabditis elegans with 43 samples.

Results

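The 6 small RNA libraries compared here were 3 from snpc-1.3(2xtbs) worms during oogenesis (oog.) and 3 from wild-type (WT) worms during spermatogenesis (spe.), of 11 small RNA libraries and 43 samples in all. They were chosen by their labels, and the comparison asked how close piRNAs of the male germline come to their spermatogenic level when the oogenic mutant makes them. snpc-1.3(2xtbs) worms were gravid adult hermaphrodites of Caenorhabditis elegans collected 72 hr after plating, in which 2 TRA-1 binding sites of the endogenous snpc-1.3 promoter are mutated in every cell. Their genotype label names the allele xk36, which also adds a 3xFlag tag to snpc-1.3, a tag that the methods do not mention for these libraries. WT spe. worms were N2 hermaphrodites at the L4 stage, 48 hr after plating. For context, 3 WT oog. libraries (N2 gravid adults, 72 hr) and 2 snpc-1.3(-) spe. libraries (the loss-of-function allele xk27, 48 hr) entered the same fit. Worms were grown at 20°C, and RNA was taken from whole worms. The libraries of each time point were pooled on 1 flow cell, so that stage, flow cell and genotype coincide between snpc-1.3(2xtbs) oog. and WT spe. and cannot be told apart. Nothing in the labels says that replicates came from separate cultures, and the p-values measure only the spread between these libraries.

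piRNAs of C. elegans, called 21U-RNAs, are short RNAs that begin with uridine and guide the Piwi protein PRG-1 to foreign transcripts in the germline. Most come from single small transcription units in clusters on chromosome IV, each with its own upstream core motif ending in GTTTCA, and their transcription needs SNPC-4, a subunit of the complex that also transcribes snRNA genes. SNPC-1.3 is a partner of SNPC-4 in the male germline, male piRNAs tend to carry a C as the first base of the core motif, and TRA-1 is the zinc-finger repressor at the end of the sex-determination pathway.

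The loci that the comparison turns on are printed from the WBcel235 genome (RefSeq) with the 60 nt before each piRNA, 5′ to 3′ on the strand of the piRNA. The first run of capitals is the core motif, and the last 21 capitals are the DNA of the piRNA itself. The first 3 loci had the piRNAs with the highest fold changes over WT spe. among ectopic male piRNAs (higher in both WT spe. and the mutant than in WT oog.) of at least 50 CPM (scaled counts per 1e6 piRNA counts) in WT spe.
21ur-1356 (chrIV:16987178-16987258, minus strand): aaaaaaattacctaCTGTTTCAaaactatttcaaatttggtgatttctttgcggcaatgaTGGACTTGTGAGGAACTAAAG
21ur-547 (chrIV:13897609-13897689, plus strand): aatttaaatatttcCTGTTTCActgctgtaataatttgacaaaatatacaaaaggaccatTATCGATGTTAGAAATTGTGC
21ur-3761 (chrIV:16687431-16687511, plus strand): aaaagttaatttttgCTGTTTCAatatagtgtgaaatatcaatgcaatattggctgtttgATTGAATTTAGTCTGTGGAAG
The next 4 had male piRNAs that were higher in the mutant than in WT oog. worms and stayed far below the WT spe. level, or, for 21ur-1258, at about the middle.
21ur-1258 (chrIV:14392563-14392643, plus strand): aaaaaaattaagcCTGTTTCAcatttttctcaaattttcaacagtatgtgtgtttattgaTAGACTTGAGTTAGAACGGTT
21ur-3142 (chrIV:16733405-16733485, plus strand): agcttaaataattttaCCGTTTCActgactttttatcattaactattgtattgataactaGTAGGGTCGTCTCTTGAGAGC
21ur-5306 (chrIV:15662945-15663025, plus strand): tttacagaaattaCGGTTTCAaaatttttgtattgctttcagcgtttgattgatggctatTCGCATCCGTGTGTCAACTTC
21ur-5399 (chrIV:13633693-13633773, minus strand): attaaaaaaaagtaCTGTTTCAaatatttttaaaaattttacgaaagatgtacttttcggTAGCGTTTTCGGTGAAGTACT
The following 2 had male piRNAs that the test did not separate from WT oog. worms.
21ur-7807 (chrIV:17028971-17029051, plus strand): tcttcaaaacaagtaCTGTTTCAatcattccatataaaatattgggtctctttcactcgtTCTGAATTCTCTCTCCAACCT
21ur-566 (chrIV:17030162-17030242, plus strand): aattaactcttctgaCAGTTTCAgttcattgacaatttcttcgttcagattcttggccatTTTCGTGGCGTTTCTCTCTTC
The last 3 had female piRNAs, with an A as the first base of the motif or, in 21ur-296, with no GTTTCA in the window.
21ur-2502 (chrIV:15396785-15396865, plus strand): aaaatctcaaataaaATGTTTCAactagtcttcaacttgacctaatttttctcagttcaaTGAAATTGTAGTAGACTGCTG
21ur-4817 (chrIV:15386083-15386163, minus strand): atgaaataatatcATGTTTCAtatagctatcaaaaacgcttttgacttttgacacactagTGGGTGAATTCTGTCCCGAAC
21ur-296 (chrIV:13863445-13863525, minus strand): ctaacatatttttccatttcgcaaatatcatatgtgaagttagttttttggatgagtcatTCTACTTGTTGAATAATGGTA

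GTTTCA was searched for in the 60 nt upstream of each of the 14714 annotated piRNAs of chromosome IV. It was found on the strand of the piRNA in 64.6% of these windows and on the other strand in 3.64%, and the 2 bases before it were read as the start of the core motif. The first base was C in 7224 windows, A in 1451, T in 624 and G in 205, and 5210 windows had no match. The motif ended a median of 38 nt before the piRNA.

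The libraries held 22346249, 13341469 and 10908809 counts on annotated features in snpc-1.3(2xtbs) oog., against 4336397 to 10605717 in WT spe., with WT oog. at 11052340 to 11925119. Replicate 1 of snpc-1.3(2xtbs) oog. was the deepest library and stood apart from its other replicates: reads on protein-coding genes took 1.45% of its counts, against 3.28% and 4.62% in the others, and reads on features annotated as ncRNA took 0.75%, against 2.40% and 3.59%. Values without it are given beside the results whose call changed without it or where it stood apart. The snpc-1.3 gene itself had 2, 5 and 5 reads in snpc-1.3(2xtbs) oog. and 1, 5 and 2 in WT spe., which are small RNA reads and not its mRNA, so they do not check the genotype.

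Chromosome IV piRNAs took a larger share of the library in the mutant adults than in spermatogenic worms. They made up 13.7%, 15.5% and 13.4% of the counts in snpc-1.3(2xtbs) oog. (14.2% ± 1.15, SD, n = 3), against 8.40%, 9.11% and 10.7% in WT spe. (9.42% ± 1.2, n = 3). In WT oog. the share was 18.5% ± 2.21 (n = 3), so the mutant lay between both wild-type stages. The snpc-1.3(2xtbs) oog. and WT spe. libraries did not overlap, and an exact two-sided permutation test gave p = 0.1, the smallest that 3 against 3 libraries can give (0.111 after Benjamini-Hochberg adjustment over 10 shares). miRNAs took 63.7% to 70.3% in snpc-1.3(2xtbs) oog. and 76.5% to 79.6% in WT spe. In whole worms fewer germ cells of a type and less RNA per cell cannot be told apart.

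Within the piRNA counts, the mutant held a small part of the male piRNA pool of WT spe. worms and most of the female pool of WT oog. worms. Male piRNAs, meaning the 3563 of 13982 piRNAs with a count (25.5%) that were higher in WT spe. than in WT oog., took 13.8%, 13.2% and 12.3% of piRNA counts in snpc-1.3(2xtbs) oog. In WT spe. they took 45.4%, 44.6% and 46.1%, whereas the WT oog. share was 6.90%, 7.02% and 7.06%. The mutant libraries thus stood above each WT oog. library and far below each WT spe. library. Female piRNAs, the 4278 (30.6%) that were lower in WT spe. than in WT oog., took 74.4%, 75.2% and 76.1% in snpc-1.3(2xtbs) oog., against 39.9%, 40.5% and 38.3% in WT spe., with WT oog. at 81.8% to 82.0%. Since WT spe. libraries chose both sets and also stand in the comparison, these shares are a description and were not tested.

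The first base of the core motif, which is read from the genome and not from the libraries, showed the same order. Loci with a C motif gave 37.8%, 38.3% and 38.7% of piRNA counts in snpc-1.3(2xtbs) oog. (38.3% ± 0.45, n = 3), against 59.2%, 58.2% and 60.2% in WT spe. (59.2% ± 0.97, n = 3), a difference of -20.9 percentage points. The WT oog. libraries lay at 34.1% to 35.5%, so that the mutant mean covered 13.6% of the distance from the WT oog. mean to the WT spe. mean. Loci with an A motif took 16.3% to 16.7% in snpc-1.3(2xtbs) oog. and 10.7% to 11.7% in WT spe., and those with no motif 37.5% to 39.4% against 25.2% to 25.9%. Neither of these pairs overlapped, whereas the small G class, at 1.27% to 2.28% against 1.31% to 1.4%, did (exact p = 0.4). The smaller of both piRNA clusters (4.5 to 7.0 Mb) held 6.48%, 6.80% and 7.40% of piRNA counts in snpc-1.3(2xtbs) oog. and 9.79%, 9.77% and 9.31% in WT spe., with WT oog. at 6.20% to 6.59%. For the C, A and no-motif shares and for this cluster the exact p was 0.1, the smallest possible.

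**Figure D1:**
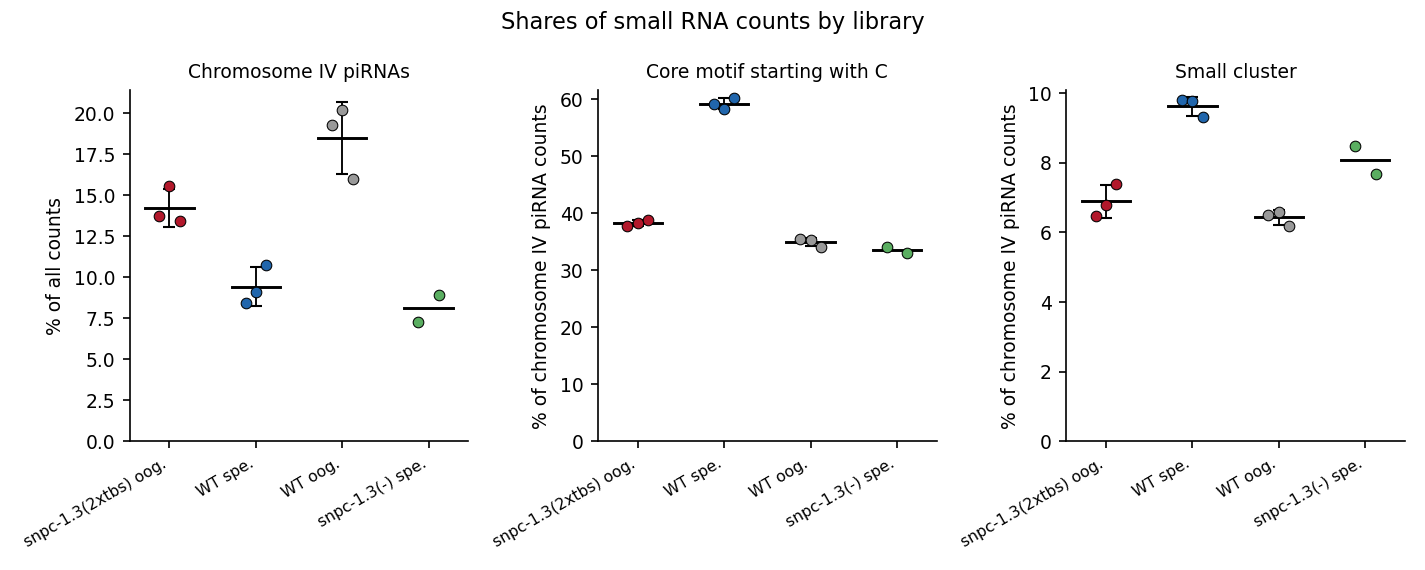
Chromosome IV piRNAs as a share of all counts (left), and loci with a C as the first base of the core motif (middle) and loci of the smaller cluster (right) as shares of chromosome IV piRNA counts, all in percent from 0. Each point is a library, lines are group means and bars 1 SD (none for snpc-1.3(-) spe., with 2 libraries), and the snpc-1.3(2xtbs) oog. libraries held 37.8% to 38.7% C-motif counts against 58.2% to 60.2% in WT spe.

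Across single piRNAs, 3458 of 13982 (24.7%) were higher in snpc-1.3(2xtbs) oog. than in WT spe. and 2814 (20.1%) were lower, by edgeR's quasi-likelihood test with a Benjamini-Hochberg adjusted p of at most 0.05 and a log2 fold change of at least 0.26 in size. This split depended on the processing: the same counts gave 1681 higher and 3577 lower with DESeq2, which changes both the scaling and the test, and 3850 higher and 1660 lower when libraries were scaled by their miRNA totals. For the 6086 piRNAs whose mean over the 11 libraries reached 10 CPM (counts set to an equal piRNA total in each library, in parts per 1e6, after TMM scaling), the median log2 fold change was 0.58, with 0.95 for miRNA totals and -0.12 for DESeq2. The values of piRNA classes below are therefore best read against that median of all piRNAs.

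Loci with a C motif were the class that was lower in the mutant. Of 6929 C loci tested, 2186 (31.5%) were lower and 801 (11.6%) higher. Of 1381 A loci, 606 were higher and 121 lower, of 591 T loci 286 and 21, of 192 G loci 60 and 11, and of 4889 loci with no motif 1705 and 475. At 10 CPM or more, the median log2 fold change was -0.66 over 3009 C loci, against 1.32 over 732 A loci, 1.53 over 282 T loci, 1.2 over 84 G loci and 1.34 over 1979 loci with no motif. With miRNA totals as the scale, C loci lay at -0.33 and A loci at 1.69, and with DESeq2 C loci at -1.36 and A loci at 0.64.

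**Figure D2:**
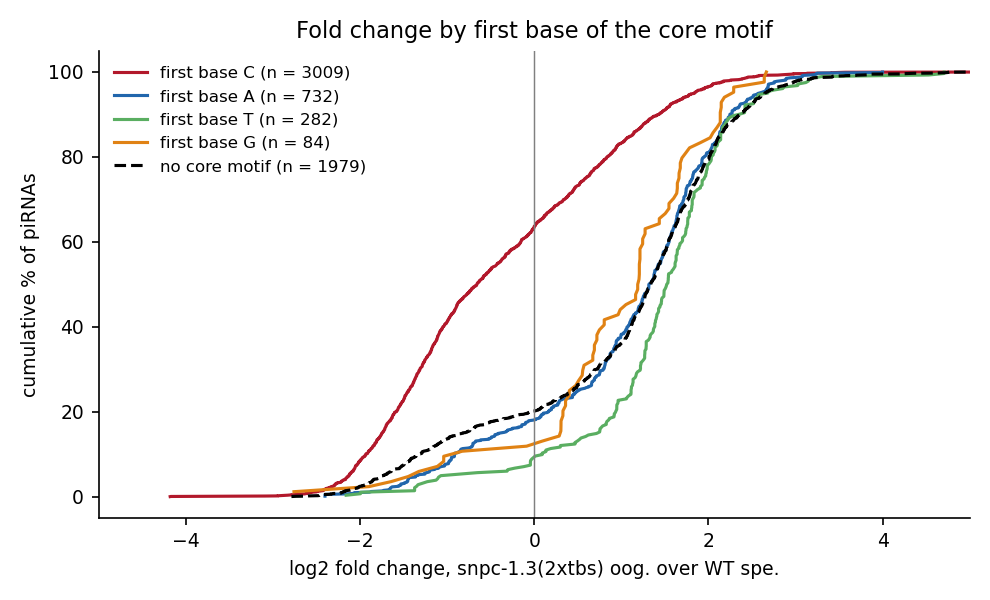
Cumulative share of chromosome IV piRNAs of at least 10 CPM, in percent, by log2 fold change of snpc-1.3(2xtbs) oog. over WT spe., with a curve for each first base of the core motif and a dashed one for loci with no motif. The C curve lies to the left of the others, with a median of -0.66, where the A, T, G and no-motif classes had medians of 1.2 to 1.53.

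Among C loci the difference varied with the rest of the upstream sequence. The median was -0.74 over 2132 loci with CT as the first 2 bases and -0.76 over 238 with CC, against -0.42 over 218 with CG and -0.09 over 421 with CA. Motifs that ended 36 to 38 nt before the piRNA had a median of -0.74 (n = 1834) and those at 39 to 41 nt -0.68 (n = 977), whereas the few at 0 to 35 nt lay at -0.13 (n = 121) and those at 42 to 44 nt at 0.21 (n = 75). C loci in the smaller cluster had a median of -1.02 (n = 456), those in the larger cluster (13.5 to 17.2 Mb) -0.55 (n = 2505), and those outside both clusters -1.3 (n = 48). C loci with little G and C upstream stood at -1.09 and those with much at -0.12. WT spe. over WT oog. ran the other way over the same classes, and shares its WT spe. libraries with these values. Its median was 2.00 for C loci of the smaller cluster and 0.90 for those of the larger one. It was 1.23 for CT and 0.25 for CA, and 1.32 at 36 to 38 nt and -0.21 at 42 to 44 nt. C loci with little G and C upstream had 2.00 and those with much 0.01. Over the piRNAs of all motif classes, the median was 0.60 on the plus and 0.54 on the minus strand, 0.55 inside coding genes and 0.59 elsewhere, and 0.71 for piRNAs that overlap another and 0.36 for the rest.

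The ectopic male piRNAs were those higher in WT spe. than in WT oog. and also higher in snpc-1.3(2xtbs) oog. than in WT oog. There were 1518 of them, among the 1580 piRNAs (11.3%) higher in the mutant than in WT oog. Of the 1518, 1254 were lower in snpc-1.3(2xtbs) oog. than in WT spe., 264 were not called and 0 were higher, beside 20.1% lower and 24.7% higher over all piRNAs. Their median log2 fold change was -1.33 against WT spe. and 1.42 against WT oog., and the median piRNA reached 39.8% of its WT spe. mean. The mutant mean was within 2-fold of the WT spe. mean for 430 of them and above it for 30. The 2 comparisons that chose these piRNAs share all their mutant and WT spe. libraries with the one described, so nothing is read from the counts as a test. With miRNA totals as the scale the set held 452 piRNAs at a median of -1.05, and with DESeq2 1362 at -2.07.

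To describe how far each male piRNA came, the gap between its WT oog. and WT spe. means was set to 100%. Over the 1413 male piRNAs with at least 50 CPM in WT spe., the mutant mean covered a median of 22.2% of the gap, with quartiles of 14.3% and 31.8%. The mutant libraries taken singly gave 28.6%, 21.5% and 14.5%, and the median was 17.8% without replicate 1. When CPM was taken from piRNA totals with no further scaling, the median was 14.8% and the libraries gave 15.3%, 14.7% and 13.4%. Of the 1413, 1312 (92.9%) were lower in snpc-1.3(2xtbs) oog. than in WT spe. and 101 were not called, beside 20.1% lower over all piRNAs. Ectopic male piRNAs made up 992 of the 1413. WT spe. and WT oog. libraries chose these piRNAs and also set the gap, so the counts and shares are a description.

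**Figure D3:**
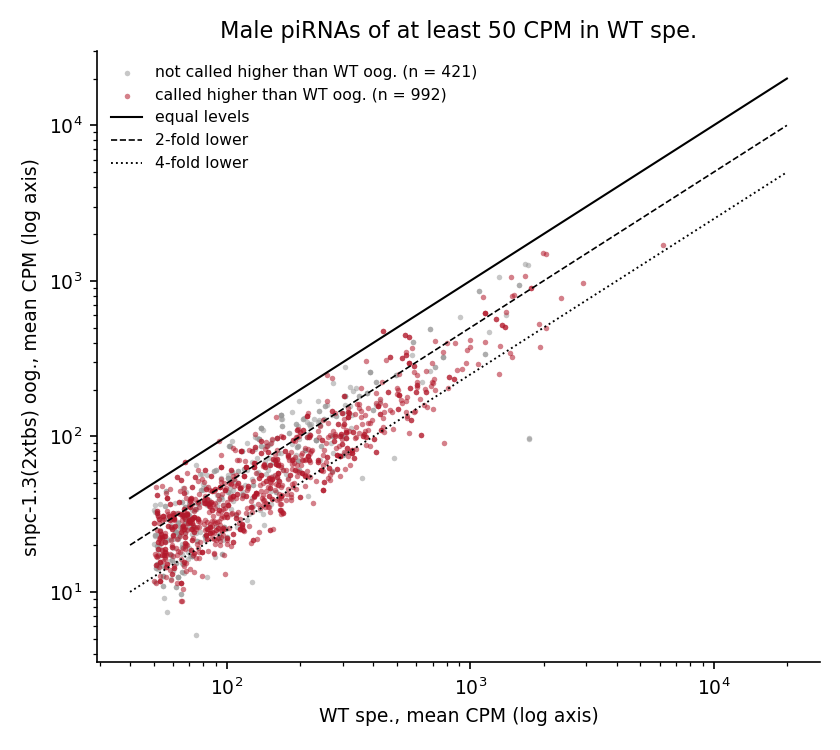
Mean level of male piRNAs of at least 50 CPM in WT spe., in CPM on log axes, in snpc-1.3(2xtbs) oog. against WT spe., with a point for each piRNA (red where called higher than in WT oog., grey where not) and lines of equal, 2-fold lower and 4-fold lower levels. Of the 1413 piRNAs, 5 had a mutant mean above the WT spe. mean.

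The covered share lay near that median in the larger classes of male piRNA. It was 22.3% over 1109 C loci, 22.6% over 62 A loci and 20.9% over 227 loci with no motif, and 19.8% and 7.84% over the 9 G and 6 T loci. Among the C loci it was 22.9% for CT, 22.9% for CA, 18.3% for CC and 18.9% for CG. Their motifs at 36 to 38 nt gave 21.7%, as did the 15 at 42 to 44 nt, with 23.2% at 39 to 41 nt and 21.4% at 0 to 35 nt. Over all motif classes the share was 22.6% in the smaller cluster, 22.3% in the larger one and 18.7% over the 32 piRNAs outside both. By the WT spe. level it was 22.8% at 50 to 100 CPM, 22.2% at 100 to 200, 19.9% at 200 to 500 and 23.8% above 500. The 42 piRNAs under 5 CPM in WT oog. covered 16.8%, and their median log2 fold change against WT spe. was -2.15. The 343 piRNAs of 50 CPM or more in WT oog. covered 23.6%, at a median of -1.02. Male piRNAs that were not called higher in the mutant than in WT oog. (421 of the 1413, with 2 called lower) covered 12.1%, and they had a median log2 fold change of -1.21 against WT spe. and 0.37 against WT oog. The same mutant and WT oog. libraries chose this set, so its low share follows from the choice and is a description.

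**Figure D4:**
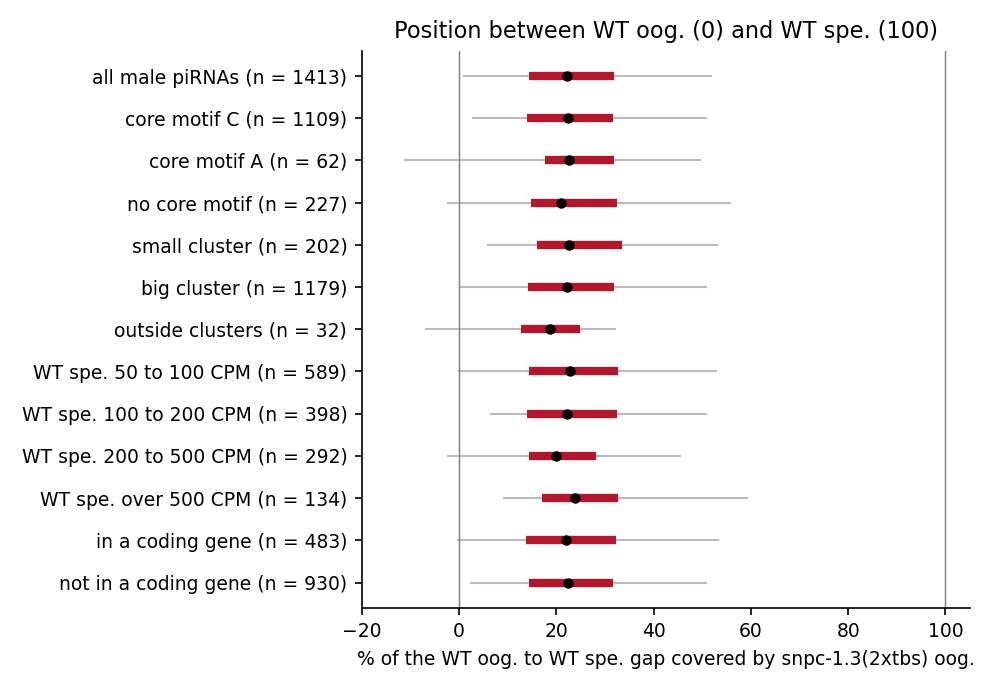
Share of the gap between the WT oog. mean (0) and the WT spe. mean (100) that snpc-1.3(2xtbs) oog. covered, in percent, over male piRNAs of at least 50 CPM in WT spe. and over classes of them. Dots are medians, thick bars run between the quartiles and thin bars from the 5th to the 95th percentile, and over all 1413 piRNAs the median was 22.2%, with quartiles of 14.3% and 31.8%.

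The 3 male piRNAs that the study follows by qPCR, 21ur-1258, 21ur-3142 and 21ur-3766, reached 51.1%, 28.5% and 50.5% of their WT spe. means. 21ur-1258 had 135, 137 and 109 CPM in snpc-1.3(2xtbs) oog., against 249, 273 and 223 CPM in WT spe. and 40.2 to 50.7 CPM in WT oog. The mutant libraries lay between both wild types with no overlap, at a log2 fold change of -0.97 (SE 0.23, edgeR adjusted p = 7.9e-05) against WT spe. 21ur-3142 had 51.9, 48.7 and 34.4 CPM in snpc-1.3(2xtbs) oog., against 139, 205 and 130 CPM in WT spe. and 17.4 to 31.1 CPM in WT oog. It too lay between them, at -1.81 (SE 0.24, edgeR adjusted p = 3.1e-12). 21ur-3766, which has identical counts to the overlapping 21ur-13242 and cannot be separated from it, had 117, 91.6 and 74.2 CPM in snpc-1.3(2xtbs) oog., against 225, 219 and 116.01 CPM in WT spe. Its highest mutant library overlapped its lowest WT spe. library, and the log2 fold change was -0.98 (SE 0.23, edgeR adjusted p = 8.2e-05). With miRNA totals as the scale, the calls of 21ur-1258 (-0.63, edgeR adjusted p = 0.057) and 21ur-3766 (-0.63, edgeR adjusted p = 0.074) ended.

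21ur-4807 is named here for its annotation only, since the probe that the study lists under that number has the sequence of 21ur-4817. This C locus had 20.3, 32.3 and 13.2 CPM in snpc-1.3(2xtbs) oog., against 50.0, 85.9 and 22.6 CPM in WT spe. and 1.49 to 2.70 CPM in WT oog. The mutant and WT spe. libraries overlapped. The log2 fold change of -1.3 (SE 0.31, edgeR adjusted p = 9.0e-05) was -0.71 and no longer called without replicate 2 of WT spe. (edgeR adjusted p = 0.13), and -0.85 and not called with miRNA totals (edgeR adjusted p = 0.087).

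Of the ectopic male piRNAs with at least 50 CPM in WT spe., the 5 with the highest fold change came from 3 loci. 21ur-1356 had 93.6, 100.1 and 84.8 CPM in snpc-1.3(2xtbs) oog., against 100.05, 110 and 67.8 CPM in WT spe. and 40.8 to 66.9 CPM in WT oog. The overlapping pair 21ur-11011 and 21ur-547, with identical counts, had 87.2, 62.5 and 56.3 CPM in snpc-1.3(2xtbs) oog., against 67.2, 82.2 and 52.7 CPM in WT spe. and 16.1 to 17.9 CPM in WT oog. The overlapping pair 21ur-3761 and 21ur-13272, also with identical counts, had 555, 493 and 389 CPM in snpc-1.3(2xtbs) oog., against 528, 463 and 318 CPM in WT spe. and 235.2 to 325 CPM in WT oog. At all 3 loci the mutant and WT spe. libraries were interleaved, and the log2 fold changes were -0.01, 0.02 and 0.13 with SE of 0.24, 0.26 and 0.23. With DESeq2 they were -0.70, -0.68 and -0.57, each called lower (DESeq2 adjusted p = 0.016, 0.035 and 0.031). The log2 fold changes of WT spe. over WT oog. at these loci were 0.75, 2.02 and 0.67. Ectopic male piRNAs of at least 50 CPM in WT spe. had a median of 2.87 there. These loci were picked as the highest, so their closeness to WT spe. is a description.

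The 5 with the lowest fold change came from 4 loci, all with a C motif. The loci with the highest fold change had one too, as did 788 of all 992 ectopic male piRNAs of at least 50 CPM in WT spe. 21ur-5306 had 102, 86.3 and 84.1 CPM in snpc-1.3(2xtbs) oog., against 719, 805 and 806 CPM in WT spe. and 39.9 to 49.2 CPM in WT oog. It reached 11.7% of its WT spe. mean, at a log2 fold change of -3.09 (SE 0.24, edgeR adjusted p = 9.0e-34). 21ur-5399, in an intron of fbxa-98 (a gene of the F-box A family) and on its other strand, had 15.4, 11.7 and 11.9 CPM in snpc-1.3(2xtbs) oog., against 89.1, 131 and 73.8 CPM in WT spe., at -2.91. The overlapping 21ur-10474 and 21ur-78 had 14.2, 7.94 and 3.97 CPM in snpc-1.3(2xtbs) oog. and 53.2 to 85.0 and 51.6 to 85.0 CPM in WT spe., at -2.84 and -2.83. 21ur-4001, in the smaller cluster, had 13.0, 6.89 and 11.3 CPM in snpc-1.3(2xtbs) oog., against 57.8, 57.0 and 82.9 CPM in WT spe., at -2.64. In none of these did the groups overlap (50.3% of all piRNAs had no overlap), and each stayed lower with every library left out in turn. They were picked as the extremes, so their order is a description.

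**Figure D5:**
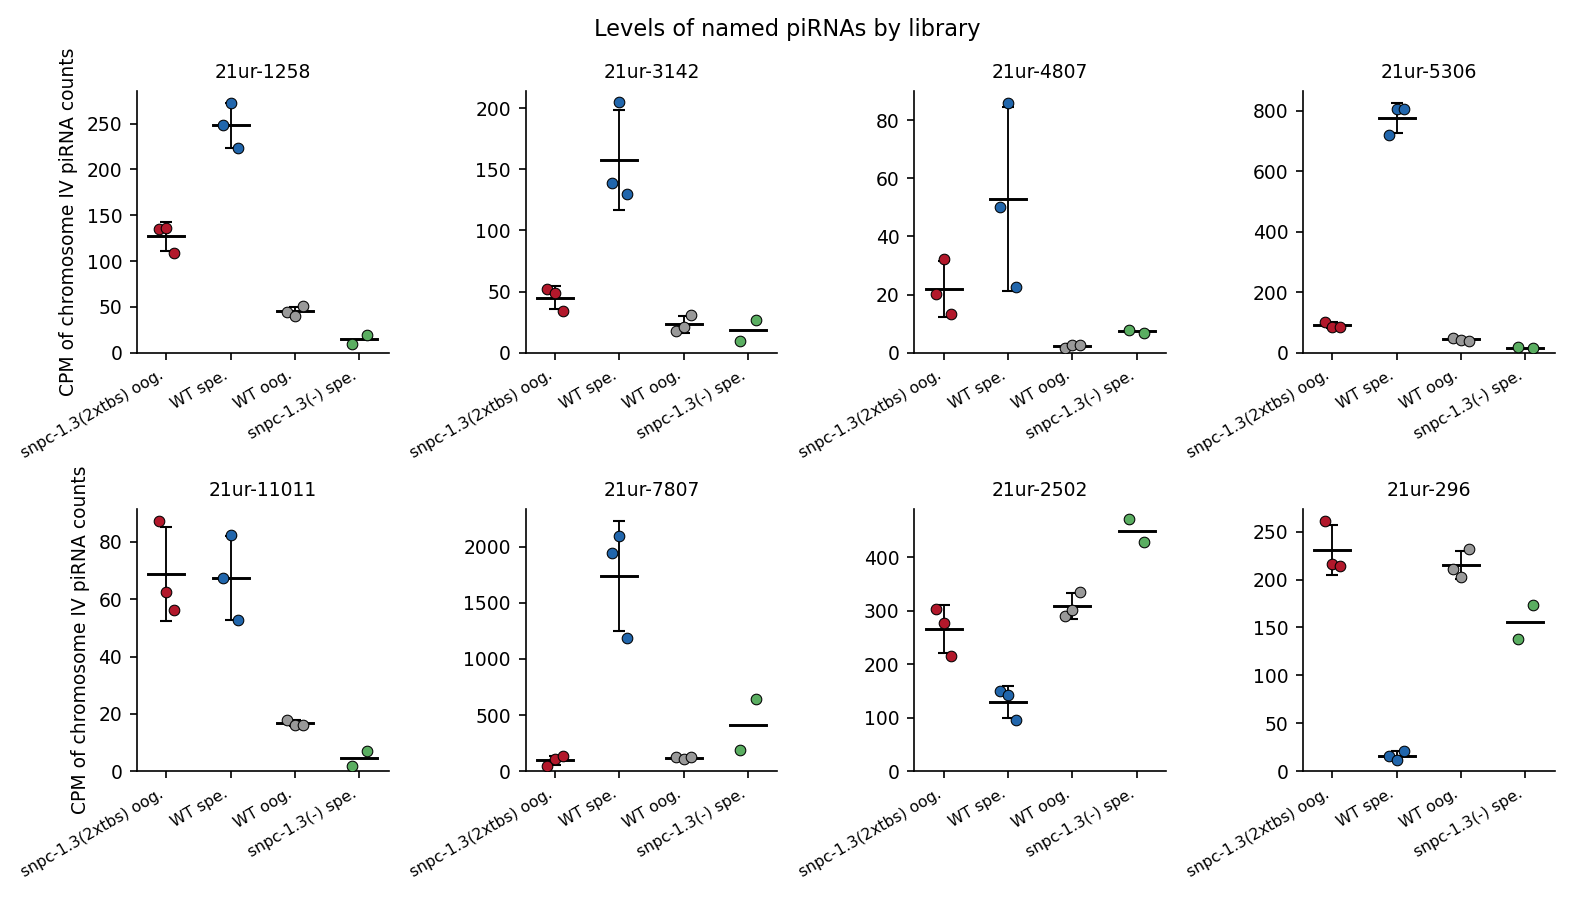
CPM of 8 named piRNAs in each library, on linear axes from 0 that differ between panels, for snpc-1.3(2xtbs) oog., WT spe., WT oog. and snpc-1.3(-) spe., with lines at the group means and bars of 1 SD (none for snpc-1.3(-) spe.). 21ur-5306 lay at 84.1 to 102 CPM in snpc-1.3(2xtbs) oog. and 719 to 806 CPM in WT spe., whereas the groups overlapped for 21ur-11011, at 56.3 to 87.2 CPM and 52.7 to 82.2 CPM.

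Some male piRNAs showed no call against WT oog. The overlapping 21ur-7807 and 21ur-13680, on the other strand of a coding exon of nhr-229 (a nuclear hormone receptor gene), had the lowest fold change of the named chromosome IV piRNAs. 21ur-7807 had 48.6, 109 and 133 CPM in snpc-1.3(2xtbs) oog., against 1943, 2090 and 1183 CPM in WT spe. and 106 to 131 CPM in WT oog. Its log2 fold change was -4.18 (SE 0.27, edgeR adjusted p = 2.3e-51) against WT spe. and -0.33 (edgeR adjusted p = 0.43) against WT oog. In snpc-1.3(-) spe. it had 189 and 641 CPM. 21ur-566, in a coding exon of the same gene, had 10.1, 10.6 and 13.9 CPM in snpc-1.3(2xtbs) oog., against 128, 141 and 110 CPM in WT spe. and 12.8 to 14.7 CPM in WT oog. Its log2 fold change was -3.47 (SE 0.29, edgeR adjusted p = 4.4e-29). The nhr-229 gene itself held 3, 4 and 4 reads in snpc-1.3(2xtbs) oog. and 4, 4 and 1 in WT spe., so the piRNA reads were not counted on it.

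21ur-4834, among the most abundant male piRNAs, had 1779, 1281 and 719 CPM in snpc-1.3(2xtbs) oog., against 1691, 2018 and 1469 CPM in WT spe. and 879 to 1307 CPM in WT oog. The groups overlapped, and the log2 fold change was -0.45 (SE 0.24, edgeR adjusted p = 0.12). Without replicate 1 of snpc-1.3(2xtbs) oog., its highest library, it was -0.79 and called (edgeR adjusted p = 0.0062), as it was with DESeq2 at -1.16 (adjusted p = 0.00012) and with filterByExpr at -0.65 (edgeR adjusted p = 0.026). 21ur-3672, in an intron of ccg-1 and with no motif, had 77.4, 68.3 and 70.9 CPM in snpc-1.3(2xtbs) oog., against 577, 135 and 746 CPM in WT spe. and 99.1 to 139 CPM in WT oog., at -2.74 (edgeR adjusted p = 1.8e-26). That p depended on the fit: it was 1.2e-05 with filterByExpr (edgeR adjusted p) and 1.5e-05 with DESeq2 (adjusted p). Replicate 2 of WT spe. was far below its other replicates there. It lay above each mutant library but within the WT oog. range, so the male label of this piRNA rests on the other WT spe. libraries. In snpc-1.3(-) spe. 21ur-3672 had 887 and 164 CPM. Against WT oog. it was called lower in the mutant, at -0.66 (edgeR adjusted p = 0.037).

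Of the 4278 female piRNAs, 3340 were higher in snpc-1.3(2xtbs) oog. than in WT spe. and 938 were not called, at a median log2 fold change of 1.6, a description since WT spe. libraries also chose the set. Against WT oog. 599 were lower in the mutant and 25 higher, beside 4.47% lower and 11.3% higher over all piRNAs. Their median there was -0.36, and since WT oog. libraries also chose the set, this is a description too. 21ur-2502 had 304, 276 and 216 CPM in snpc-1.3(2xtbs) oog., against 150, 142 and 94.9 CPM in WT spe. and 290 to 335 CPM in WT oog., at a log2 fold change of 1.04 (edgeR adjusted p = 5.3e-05) that DESeq2 put at 0.33 and did not call (DESeq2 adjusted p = 0.21). 21ur-4817 had 506, 480 and 632 CPM in snpc-1.3(2xtbs) oog., against 167, 124 and 102 CPM in WT spe., at 2.04. 21ur-1848, which has identical counts to 21ur-749 and 21ur-7214, had 515, 526 and 533 CPM in snpc-1.3(2xtbs) oog., against 113, 192 and 90.4 CPM in WT spe., at 1.97. None of the 3 was called against WT oog., with log2 fold changes of -0.22, -0.21 and -0.11.

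The named piRNAs with the smallest p among those higher in the mutant lay inside coding genes, as did 5197 of the 13982 tested. Of all piRNAs in coding genes 22.7% were higher, against 25.9% of those elsewhere. 21ur-296, in an intron of vamp-8 (a gene of the vesicle-associated membrane protein family), had 261, 216 and 215 CPM in snpc-1.3(2xtbs) oog., against 15.6, 12.1 and 21.1 CPM in WT spe., at 3.86 (SE 0.30, edgeR adjusted p = 5.1e-35). The overlapping 21ur-4578 and 21ur-5831, with identical counts and an A motif in an intron of Y57G11C.38, had 1396, 1138 and 1114 CPM in snpc-1.3(2xtbs) oog., against 127, 121 and 140 CPM in WT spe., at 3.24. At both loci the mutant level was close to WT oog., at 203 to 232 CPM and 1371 to 1431 CPM.

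For 21ur-6516 and 21ur-6297 replicate 1 of the mutant stood apart. 21ur-6516, on the other strand of a coding exon of Y43D4A.6, had 87.2, 312 and 592 CPM in snpc-1.3(2xtbs) oog., against 6.25, 22.4 and 6.03 CPM in WT spe. and 437 to 525 CPM in WT oog., at 4.66. Without replicate 1 it stood at 5.11, without replicate 3 of the mutant at 3.93 and without replicate 2 of WT spe. at 5.72. 21ur-6297, on the strand of its host gene Y116A8C.40 and in an intron of it, had 22.7, 130 and 295 CPM in snpc-1.3(2xtbs) oog., against 4.69, 11.2 and 4.52 CPM in WT spe., at 4.29. Without the same libraries in turn it stood at 4.81, 3.32 and 4.97. Small RNA reads on Y116A8C.40 moved with it, at 248, 789 and 1101 reads in snpc-1.3(2xtbs) oog. and 18, 34 and 7 in WT spe. The part of the lower share of reads on genes in replicate 1 in these values was not tested.

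SNPC-1.3 ChIP-seq of spermatogenic worms (48 hr) gave another readout of the same loci, as the log2 ratio of IP to input in snpc-1.3::3xflag minus that in untagged N2, over the 1 kb bins that the files list for both. Bins with piRNAs lower in snpc-1.3(2xtbs) oog. than in WT spe. had medians of 0.81 (417 bins) and 0.90 (273 bins) in the 2 replicates. Bins with piRNAs that were higher had 0.82 (372 bins) and 0.90 (201 bins), and bins with ectopic male piRNAs 0.85 and 0.94. Chromosome IV bins with no annotated piRNA lay at -0.01 and 0.00. The medians thus hardly differed between piRNAs that were higher and lower, which often share a bin. Bins that hold both kinds cannot separate them. The paper took bins with only male or only female piRNAs. It reported a SNPC-1.3 peak just upstream of male piRNAs and little sign of binding at female ones. Only 11.9% to 24.5% of the bins that hold these piRNAs were listed in both genotypes, and no test was made.

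Outside chromosome IV piRNAs, 1149 of 8723 features (13.2%) were higher in snpc-1.3(2xtbs) oog. than in WT spe. and 2242 (25.7%) lower, with a median log2 fold change of -0.13. With miRNA totals as the scale, 1540 were higher and 1401 lower. Of 185 miRNAs, 23 (12.4%) were higher and 81 (43.8%) lower. The mir-35 family, miRNAs of oocytes and embryos, had 7 of 8 members higher and a median of 5.01. Summed over the family, it made up 126829 to 170250 parts per 1e6 of all counts, with no TMM scaling, in snpc-1.3(2xtbs) oog., against 4509 to 5214 in WT spe., with WT oog. at 116153 to 138398. mir-42 was the exception, at 1151, 991 and 799 CPM of all features, TMM-scaled, in snpc-1.3(2xtbs) oog. and 788, 1338 and 821 CPM in WT spe.

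By smallest p, the leading miRNAs that were higher were mir-41 and mir-38 of this family, at 6.32 and 5.10, and mir-8199, which had 31.4, 28.2 and 17.7 CPM in snpc-1.3(2xtbs) oog., against 0, 0.12 and 0 CPM in WT spe. The leading ones that were lower were mir-247, at -2.82, mir-242, at -2.37, and mir-357, at -2.02.

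The heterochronic miRNAs, which time larval development, had 4 of 5 members lower, beside 43.8% of all 185 miRNAs. The median log2 fold change over all miRNAs was -0.73, and mir-84 and mir-48 lay near it. lin-4, the regulator of early larval fates, had 5607, 4987 and 3032 CPM in snpc-1.3(2xtbs) oog., against 21600, 29757 and 22579 CPM in WT spe., at a log2 fold change of -2.44 (edgeR adjusted p = 6.2e-05). let-7, which acts at the larval-to-adult switch, stood at -1.69 and mir-241 at -2.17. mir-84, at -0.78 (edgeR adjusted p = 0.025), lost its call with miRNA totals (-0.41, edgeR adjusted p = 0.11), and without replicate 2 or 3 of snpc-1.3(2xtbs) oog. or replicate 1 of WT spe., so that 3 of 5 were then lower. mir-48, at -0.74, was not called (edgeR adjusted p = 0.12), but was without replicate 1 of the mutant (-0.94, edgeR adjusted p = 0.040) and with DESeq2 (-0.91, adjusted p = 0.012). As markers of other cells in the worm, mir-1 of body wall muscle was not called, at -0.49 (edgeR adjusted p = 0.31), and mir-124 of sensory neurons was lower, at -1.25 (edgeR adjusted p = 0.0055), but not with miRNA totals (edgeR adjusted p = 0.13). These stage markers differ between the groups along with the piRNAs, and their part in the piRNA values was not tested.

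Small RNA reads on genes of the male germline and of the adult body are read against the 25.7% lower and 13.2% higher over all other features. Of 17 spe genes tested, which act in sperm development, 12 were lower, 7 with miRNA totals as the scale, and the median was -1.88. None was higher by edgeR or DESeq2, and 0 had a positive fold change at an unadjusted edgeR p under 0.05. Of 32 major sperm protein genes 3 were lower, against 0 to 6 with a library left out and 0 with miRNA totals, a smaller share than over all other features. Of 26 collagen genes 16 were lower, with a median of -2.3. Of 6 vitellogenin genes, which encode yolk proteins, 5 were higher with a median of 2.38, and 3 without replicate 2 of WT spe.

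Of 20 piRNA factor genes found in the annotation, 12 had enough reads to test. Small RNA reads on 5 of them were higher in snpc-1.3(2xtbs) oog., on 3 by DESeq2 and on 8 with miRNA totals. Over all 8723 other features, 1149 (13.2%) were higher, 839 by DESeq2 and 1540 with miRNA totals. None was lower by edgeR or DESeq2, and 0 had a negative fold change at an unadjusted edgeR p under 0.05. prg-1, which encodes the Piwi protein itself, had 16.2, 14.9 and 13.5 CPM in snpc-1.3(2xtbs) oog., against 6.35, 6.97 and 4.06 CPM in WT spe., at 1.34 (edgeR adjusted p = 0.00078). snpc-4 had 1.31, 0.824 and 1.13 CPM in snpc-1.3(2xtbs) oog., against 0.192, 0.361 and 0 CPM in WT spe., at 2.3 (edgeR adjusted p = 0.0084). tofu-1, snpc-1.2 and parn-1, a gene for the trimmer of piRNA ends, made up the rest, and each lost its call in at least 1 fit with a library left out. The count was 3 without replicate 2 of snpc-1.3(2xtbs) oog. or without any 1 WT spe. library. These reads are small RNAs on the genes, not their mRNA.

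The other features with the smallest p included 1 piRNA outside chromosome IV. 21ur-13684, on chromosome V, had 0.979, 3.23 and 4.22 CPM of all features in snpc-1.3(2xtbs) oog., against 97.0, 99.6 and 89.0 CPM in WT spe. and 3.02 to 3.3 CPM in WT oog., at -5.10 (edgeR adjusted p = 1.5e-07). The groups did not overlap, and the mutant was at the WT oog. level. Reads on svh-1, a gene for a growth factor that acts in axon regeneration, stood at -5.03, and those on the ncRNA ZC53.8 at -4.22. Higher in the mutant were mir-41 of the mir-35 family, at 6.32, and the ncRNA T05E12.10, at 8.48. The ncRNA Y62F5A.14, which overlaps mir-36 and mir-37 on their strand and can share their reads, had 73.1, 56.3 and 46.7 CPM in snpc-1.3(2xtbs) oog., against 0, 0.12 and 0.406 CPM in WT spe.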

How the data were processed

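Small RNA reads of 15 to 30 nt were aligned by the authors to WBcel235 with Bowtie 1.1.1 (no mismatches, up to 5 best places) after Trimmomatic 0.39, and the counts that they deposited were made with featureCounts (Subread 1.6.3), a read being counted at each place and each feature it overlapped. Overlapping piRNAs therefore share reads, and reads carried no molecular identifiers. Versions are as in the paper's methods and the submitters' processing notes. ChIP-seq counts per 1 kb bin were also deposited by the authors, who list only bins above a background.

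For 13982 chromosome IV piRNAs the counts went into edgeR 4.0.16 under R 4.3.3 (quasi-likelihood fit in legacy mode, TMM over these piRNAs, 4 groups in 1 fit, no block, no filter on low counts). CPM uses the same scaling. All 16968 features that passed filterByExpr were fitted with TMM over them. Adjusted p-values are Benjamini-Hochberg over all features of a fit, with the study's thresholds (0.05 and a log2 fold change of 0.26). DESeq2 1.42.0, other scalings, filters, a replicate block and leaving out libraries were alternatives. The fit was tested on simulated data in which few features changed and all others were equal between groups. Such data cannot check the scaling where many features differ, as they do here. The text names the piRNAs that the study names, the 5 called higher and the 5 called lower with the smallest p whose libraries do not overlap, the 5 highest and 5 lowest ectopic male piRNAs of at least 50 CPM in WT spe., the 3 highest male piRNAs not called against WT oog., and by smallest p the top 3 of other features and of miRNAs on each side. Members, lists and tests were chosen with earlier results of these data known. The authors' normalized table, the peak lists of TRA-1 ChIP-seq and the SNPC-4-depleted ChIP-seq were not used here.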

Additional observations from a re-analysis of the deposited data

How the results depend on the processing

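Scaling and the test tool moved most values. DESeq2, which changes both, gave 1681 piRNAs higher in snpc-1.3(2xtbs) oog. than in WT spe., and log2 medians of -2.07 over ectopic male piRNAs and, added after seeing the data, -0.12 over all piRNAs, -1.36 for C, 0.64 for A, 0.85 for T, 0.50 for G and 0.64 for no motif. With miRNA totals, 1660 piRNAs and 1401 other features were lower, 452 piRNAs were ectopic male at a median of -1.05, and the medians were 0.95 over all piRNAs, -0.33 for C, 1.69 for A, 1.91 for T, 1.55 for G and 1.70 for no motif. TMM over all features gave 1.3 for A and 1.31 for no motif. Among the 7543 piRNAs that overlap no other, 1623 were higher and 1065 lower, and 713 were ectopic male at -1.1. The same piRNAs gave 1398 higher and 1426 lower in the fit over all piRNAs. A motif that had to end 30 to 50 nt upstream put the A share 5.97 percentage points above WT spe. The share of the gap covered by the median male piRNA was 14.8% on piRNA totals, an alternative added after seeing the data, as were the other tests of that share, of ectopic male piRNAs and of the shares without a library. The smallest p-values were far larger with filterByExpr than in the main fit, which keeps piRNAs of low counts. The edgeR adjusted p went from 2.3e-51 to 4.9e-09 for 21ur-7807, from 9.0e-34 to 6.6e-11 for 21ur-5306 and from 5.1e-35 to 5.1e-10 for 21ur-296. The cause of these shifts was not tested.

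The piRNAs nearest to WT spe. levels changed sign around 0. 21ur-1356 was at 0.37 with miRNA totals and at -0.18 to 0.15 with a library left out. 21ur-11011 and 21ur-547 were at -0.68 with DESeq2, -0.17 with filterByExpr, -0.038 with both groups alone and -0.20 to 0.20 with a library left out, and 21ur-13272 and 21ur-3761 at -0.57, -0.055 with filterByExpr and -0.047 to 0.29. mir-42 was at 0.38 with miRNA totals and -0.14 to 0.29 with a library left out. Of 324 values of the 27 named piRNAs under alternatives, 294 kept direction and call, as did 291 of 315 for other named features.

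The main fit did not pair libraries by replicate number. Deviations of same-numbered snpc-1.3(2xtbs) oog. and WT spe. libraries from their group means correlated at 0.038, 0.18 and 0.12 over 6086 piRNAs. Each library correlated best with its own number, against -0.12 to 0.0073 for the other pairs. What same-numbered libraries share was not tested. With a replicate block mir-84 lost its call (edgeR adjusted p = 0.060). The block gave 3353 higher, 2562 lower, 1389 ectopic male piRNAs at a median of -1.35, and 21ur-1356 at 0.0095. With a library left out, 3080 to 3459 piRNAs were higher and 2294 to 2642 lower, and 1194 to 1554 were ectopic male at medians of -1.44 to -1.23. The C-motif share differed by -21.4 to -20.5 points.

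Depth limits the rarer loci, since snpc-1.3(2xtbs) oog. libraries held 1461786 to 3061763 piRNA counts against 466066 to 966423 in WT spe.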
